A study of Caenorhabditis elegans with 12 samples.

Results

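The insulin-like peptide genes of Caenorhabditis elegans were taken from the deposited count table by their symbols, as every gene named ins with a number plus daf-28. This gave 39 genes, all annotated as protein coding, of the 46748 in the table. Whole worms at day 1 of adulthood were grown at 20 °C on E. coli OP50, and their poly(A)-selected RNA was sequenced for 3 genotypes with 4 biological replicates each. These were wild type (strain N2), circ-crh-1(syb385) (strain VDL786), a CRISPR/Cas9 deletion within an intron of crh-1 made to remove the circular RNA of that gene, and crh-1(n3315) (strain MT9973), an allele of crh-1, which encodes the transcription factor CREB. Each genotype is a single strain. FUdR, a drug that blocks progeny, is in the plates of the study's methods unless stated otherwise, but is absent from the labels. By RT-qPCR, the study found linear crh-1 RNA not significantly changed in circ-crh-1(syb385). Its western blot showed no phosphorylated CRH-1 protein in crh-1(n3315), which it describes as null. Counts of crh-1 did not check either mutant label. They came to 42.4 ± 4.06 CPM (SD, n = 4) in wild type, 44.8 ± 1.41 in circ-crh-1(syb385) and 50.1 ± 2.41 in crh-1(n3315), so the last group is named by its label, as the crh-1(n3315)-labelled libraries. CPM are counts divided by the library size after edgeR's TMM normalization, on the usual CPM scale.

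Insulin-like peptides are small secreted hormones, made mostly by neurons and the intestine, that bind the insulin receptor DAF-2. Agonists switch on the kinase cascade below DAF-2, which keeps the transcription factor DAF-16 (FOXO) out of the nucleus and favours reproductive growth. Antagonists act against the receptor, and lowered signalling favours dauer arrest, stress resistance and a longer life. On the lists used here, the agonists are daf-28, ins-3, ins-4, ins-6, ins-7, ins-33 and ins-35, and the antagonists are ins-1, ins-17 and ins-18. The other 29 genes are on neither list, and their action on the receptor was not classed here.

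The 12 libraries held 16348586 to 25369267 counts. At these depths 3 counts, the upper limit that a count of 0 allows, were worth 0.1247 to 0.1698 CPM. Such limits cover counting error only, because copies made by PCR count like molecules of their own. Wild type replicate 2 and circ-crh-1(syb385) replicate 1 stood apart at low counts. Genes with exactly 1 count numbered 158 and 262 in these libraries and 525 to 1467 in the other 10. Genes at 0 that averaged at least 10 counts in the other libraries numbered 183 and 171 in them, against 19 to 58. Wild type replicate 2 had no count for ins-6, ins-22, ins-33, ins-35 and ins-37, so results of several genes are given with and without these libraries. No such values are given for ins-22 and ins-37, which were not called on all libraries.

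**Figure D1:**
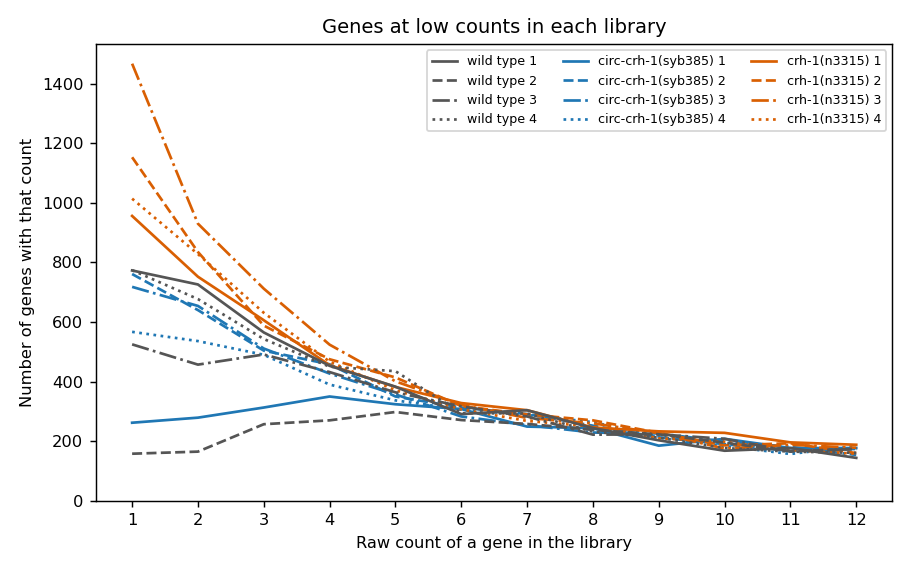
Number of genes (y axis) with a raw count of 1 to 12 (x axis) in each of the 12 libraries, with colour for the genotype and line style for the replicate. Wild type replicate 2 and circ-crh-1(syb385) replicate 1 lie lowest at 1 count, with 158 and 262 genes, and all lines run close together from about 6 counts.

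Detection was low for most of the family. A gene was taken as detected in a genotype when each of its 4 libraries had more than 3 counts, as sporadic when only some had, and as at or under the floor when none had. In wild type 18 of the 39 genes were detected, 14 were sporadic and 7 were at or under the floor. Both mutants gave similar numbers, with 18, 12 and 9 genes in circ-crh-1(syb385) and 20, 10 and 9 in the crh-1(n3315)-labelled libraries. Without the pair of libraries that stand apart, 23 genes were detected in wild type and 20 in circ-crh-1(syb385). Detection in all 3 genotypes was reached by 15 genes. These were the agonists daf-28, ins-3, ins-4 and ins-7, all 3 antagonists, and ins-2, ins-24, ins-26, ins-27, ins-28, ins-29, ins-30 and ins-34. Only some genotypes reached detection for ins-23 (wild type), ins-31 (wild type and circ-crh-1(syb385)), and ins-6 and ins-33 (both mutants). The same holds for ins-5 and ins-22 (crh-1(n3315)-labelled libraries) and ins-10 (wild type and crh-1(n3315)-labelled libraries).

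At the other end, 5 genes stayed at or under the floor in every genotype. They were ins-8, ins-13, ins-15, ins-39 and ins-16, and ins-16 had 0 counts in all 12 libraries. A further 10 genes, ins-9, ins-10, ins-11, ins-12, ins-14, ins-20, ins-21, ins-25, ins-32 and ins-36, had 4 to 82 counts over all libraries and did not pass the filter for testing. Of these, ins-10 still met the rule for detection in wild type and in the crh-1(n3315)-labelled libraries. The remaining 24 genes were tested. A gene at or under the floor was not detectable at this depth in RNA from whole worms, which does not show that it is silent.

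**Figure D2:**
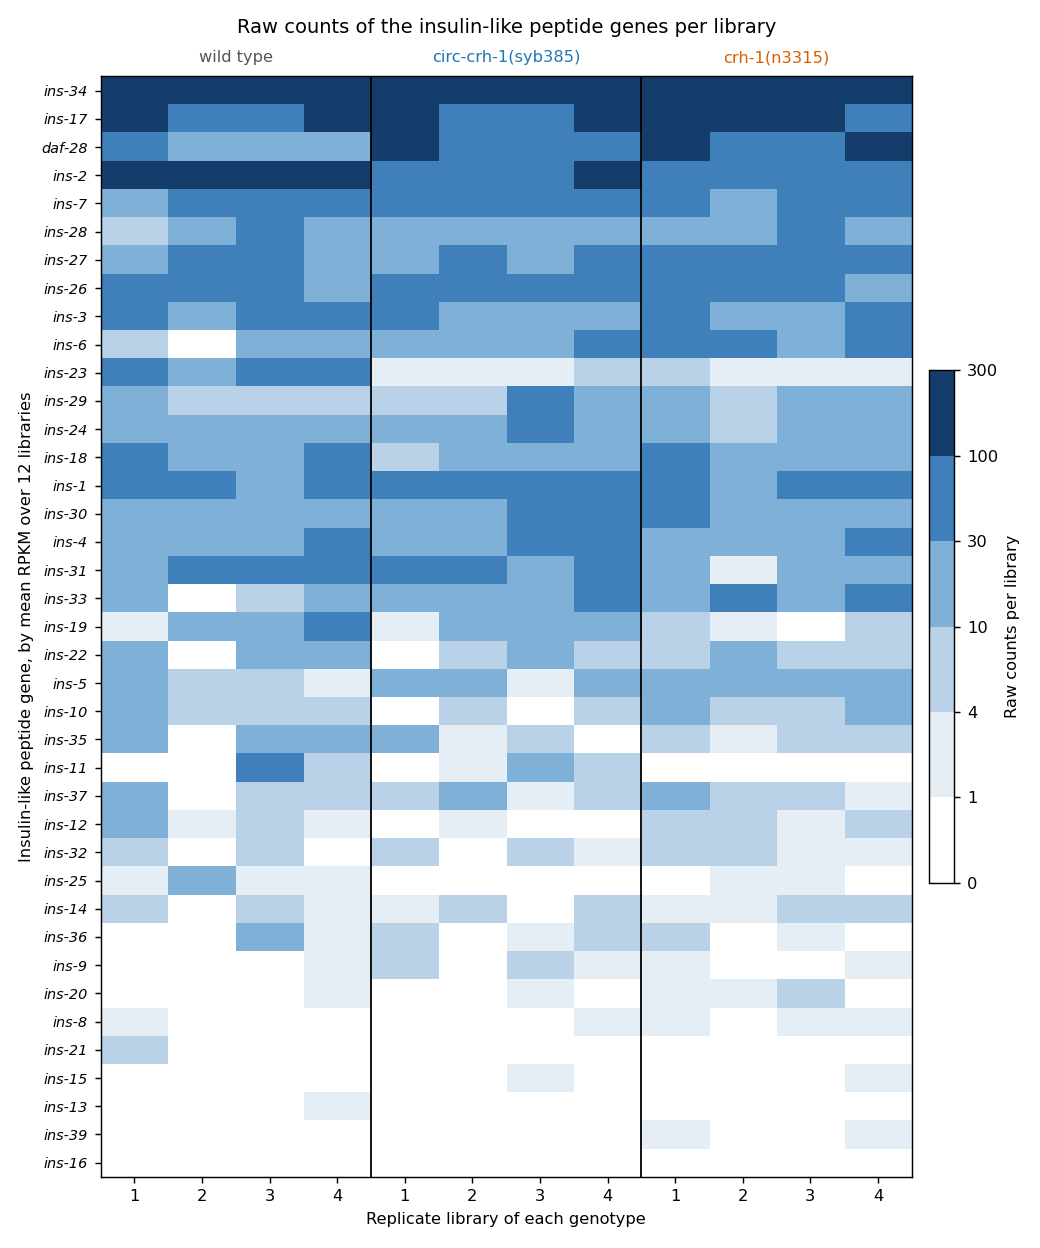
Raw counts of the 39 insulin-like peptide genes (rows, from the highest to the lowest mean RPKM) in the 12 libraries (columns, 4 replicates of each genotype), shown by colour class from 0 to 300 counts. The darkest rows are ins-34, ins-17, daf-28 and ins-2, and the last rows, ending with ins-16, are nearly empty.

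Levels between genes were compared per kilobase of exonic length, as RPKM from the normalized counts. The most abundant gene of the family in every genotype was ins-34, with 20.1 ± 2.36 RPKM (SD, n = 4) in wild type. Even this value lay only at percentile 61.8 of the tested genes. The order in wild type went on with ins-2 at 9.67 ± 1.13, ins-17 at 8.37 ± 2.42, ins-23 at 6.20 ± 3.25 and ins-7 at 5.88 ± 4.08 RPKM, and the ranges of mean ± SD of these 4 neighbours overlapped. The agonist daf-28 was at rank 13 in wild type with 2.31 ± 1.16 RPKM. It was at rank 2 in circ-crh-1(syb385) with 9.72 ± 3.997 RPKM and at rank 2 in the crh-1(n3315)-labelled libraries with 12.6 ± 2.94 RPKM.

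The summed level of all 39 genes differed little between genotypes. It was 44.0 ± 5.14 CPM (SD, n = 4) in wild type, 45.4 ± 2.44 in circ-crh-1(syb385) and 39.2 ± 3.77 in the crh-1(n3315)-labelled libraries, and the ranges of the groups overlapped. The makeup of the sum changed more, with daf-28 at 1.92% of it in wild type, 7.84% in circ-crh-1(syb385) and 11.7% in the crh-1(n3315)-labelled libraries. Over the same groups ins-2 made up 11.97%, 9.48% and 5.16%.

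Differences were tested with edgeR's quasi-likelihood test, fitted on 14511 genes with p-values adjusted after Benjamini and Hochberg over all of them. A call needed an adjusted p under 0.05 together with a 2-fold or larger difference, and SE below is the standard error of a log2 fold change. In circ-crh-1(syb385), daf-28 was called higher than in wild type and ins-23 lower. That is 1 of the 24 tested genes in each direction, where 2.24% of all tested genes were called higher and 4.48% lower (6.72% in either direction). In the crh-1(n3315)-labelled libraries, daf-28 and ins-6 were called higher and ins-23, ins-31, ins-2 and ins-19 lower. Of the 24 genes these were 8.33% and 16.7%, where 4.17% of all tested genes were called higher and 11.2% lower (15.4% in either direction). Counts this small lie near the background in each direction. With the 2-fold threshold placed inside the test, only daf-28 and ins-23 in the crh-1(n3315)-labelled libraries were called. The median log2 fold change of the 24 genes was 0.06 in circ-crh-1(syb385) and −0.17 in the crh-1(n3315)-labelled libraries, where all tested genes had −0.05 and −0.04. The second value was 0.12 with a correction for gene length and 0.0045 without wild type replicate 1. The family was measured with less precision than most genes, with a median standard error of 0.45 on the log2 scale against 0.20 for all tested genes in both comparisons.

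**Figure D3:**
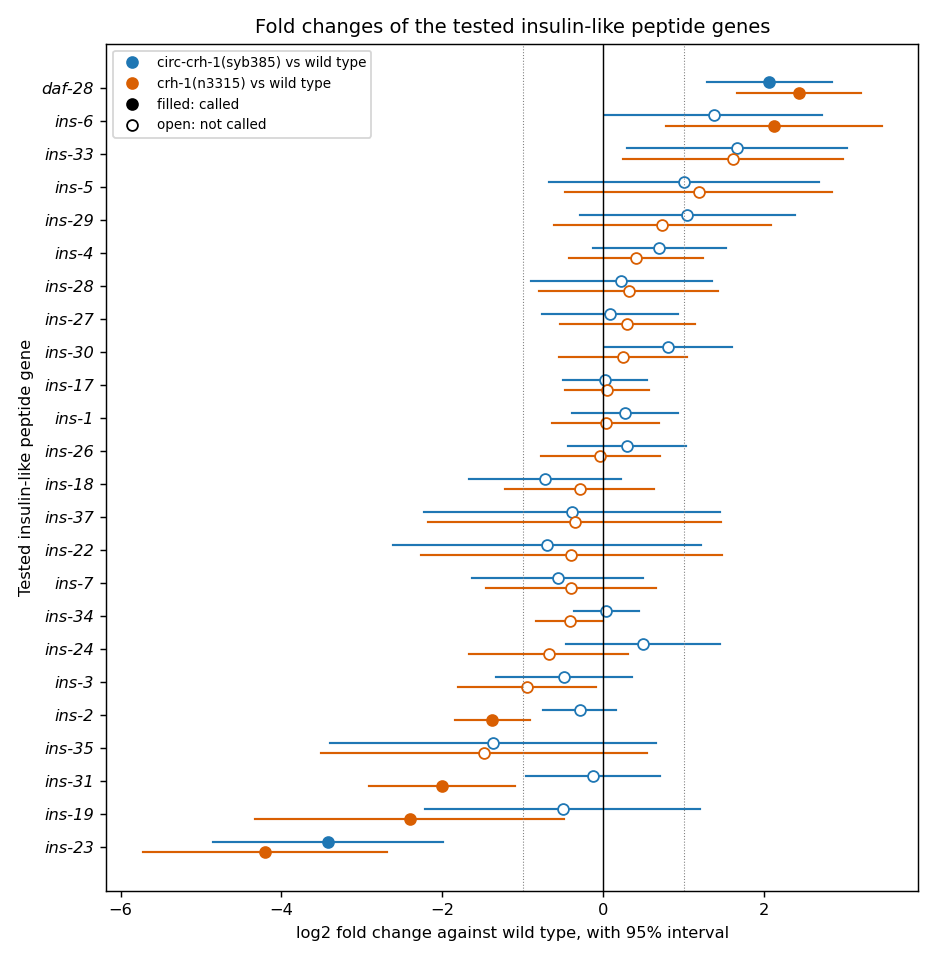
log2 fold change against wild type (x axis) with its 95% interval for the 24 tested genes (y axis), in circ-crh-1(syb385) (blue) and in the crh-1(n3315)-labelled libraries (orange). Filled points passed the test at 2-fold or more, dotted lines mark 2-fold, and daf-28 and ins-23, at the ends of the plot, are filled in both colours.

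Among the agonists, daf-28 gave the clearest difference. It encodes a peptide of chemosensory neurons and the hindgut that prevents dauer arrest, and it lies on chromosome V (WBcel235, 19815445 to 19816219, plus strand, 2 exons). Its levels in replicates 1 to 4 were 1.47, 0.746, 0.545 and 0.623 CPM in wild type, 5.70, 2.66, 2.57 and 3.31 CPM in circ-crh-1(syb385), and 4.72, 3.83, 3.77 and 6.08 CPM in the crh-1(n3315)-labelled libraries. Counts were 10 to 30 per wild-type library and at least 47 in every mutant library. Every mutant library lay above every wild-type library. The level was 0.846 ± 0.424 CPM (SD, n = 4) in wild type, 3.56 ± 1.46 in circ-crh-1(syb385) and 4.60 ± 1.08 in the crh-1(n3315)-labelled libraries. By edgeR's quasi-likelihood test the log2 fold change was 2.07 (SE 0.36, adjusted p = 0.00142) in circ-crh-1(syb385) and 2.43 (SE 0.36, adjusted p = 0.000115) in the crh-1(n3315)-labelled libraries. Without the pair of libraries that stand apart, it was 1.69 and 2.38 and both calls stood. RNA of whole worms does not tell a change in the number of cells that make a peptide from a change in RNA per cell.

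The agonist ins-6, made in chemosensory neurons and acting with daf-28 in the dauer decision, lies on chromosome II (6000491 to 6001013, plus strand). Its counts were 5, 0, 10 and 24 in wild type, 18, 19, 22 and 33 in circ-crh-1(syb385), and 58, 41, 24 and 45 in the crh-1(n3315)-labelled libraries. As CPM, all crh-1(n3315)-labelled libraries lay above all wild-type libraries, while circ-crh-1(syb385) lay between and overlapped both. The log2 fold change was 2.12 (SE 0.63, adjusted p = 0.0134, edgeR's quasi-likelihood test) in the crh-1(n3315)-labelled libraries and 1.37 (SE 0.64, adjusted p = 0.1599) in circ-crh-1(syb385). Leaving out the pair of libraries, with wild type replicate 2 at 0 among them, gave 1.71 and 1.07, and only the first was a call.

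The agonist ins-33, which promotes larval germline proliferation, did not pass the test. Its counts were 13, 0, 9 and 10 in wild type, 23, 19, 17 and 37 in circ-crh-1(syb385), and 20, 32, 13 and 33 in the crh-1(n3315)-labelled libraries. The circ-crh-1(syb385) libraries lay above wild type without overlap, and the crh-1(n3315)-labelled libraries overlapped it. The log2 fold changes were 1.66 (SE 0.64, adjusted p = 0.0915) and 1.62 (SE 0.64, adjusted p = 0.0541) by edgeR, whereas DESeq2 gave adjusted p-values of 0.0370 and 0.0220, past the threshold in both. Without the pair of libraries that stand apart, edgeR gave 1.28 and 1.203, neither of them a call. The second difference became a call without wild type replicate 1, at 1.96 (adjusted p = 0.0409, edgeR), or without crh-1(n3315) replicate 3, at 1.85 (adjusted p = 0.0484, edgeR). It was also a call with a correction for gene length on all libraries, at 1.94 (adjusted p = 0.0213, edgeR).

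Of the other agonists, ins-3, also linked to germline proliferation, had 44, 21, 61 and 52 counts in wild type and 33, 16, 15 and 30 in the crh-1(n3315)-labelled libraries. These groups overlapped, with a log2 fold change of −0.95 (SE 0.40, adjusted p = 0.0707, edgeR). Without wild type replicate 2 alone it was −1.19 (adjusted p = 0.0197, edgeR) and by library totals −1.15 (adjusted p = 0.0342, edgeR), and both are calls. In circ-crh-1(syb385), ins-3 had 43, 26, 24 and 26 counts and a log2 fold change of −0.48 (SE 0.40, adjusted p = 0.454, edgeR).

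Replicates of ins-7 spread widely. This gene encodes an intestinal and neuronal agonist that is itself repressed by DAF-16. It had 22, 90, 96 and 33 counts in wild type, 30, 56, 35 and 31 in circ-crh-1(syb385), and 73, 16, 48 and 55 in the crh-1(n3315)-labelled libraries. The log2 fold changes of −0.57 and −0.40 were close to their standard errors of 0.50 (adjusted p = 0.488 and 0.550, edgeR). Counts were steadier for ins-4, which acts in dauer formation, at 13, 12, 17 and 31 in wild type, 22, 21, 31 and 34 in circ-crh-1(syb385), and 20, 20, 23 and 32 in the crh-1(n3315)-labelled libraries. All groups overlapped, and the log2 fold changes were 0.70 and 0.41 (SE 0.39 in each, adjusted p = 0.249 and 0.427, edgeR).

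The 3 antagonists on the list gave no call against wild type. This does not cover genes on neither list, such as ins-23. The smallest unadjusted p among them was 0.126 in circ-crh-1(syb385) and 0.512 in the crh-1(n3315)-labelled libraries, and DESeq2 called 0 of the 3 as well. The most abundant was ins-17, which promotes dauer formation, with 121, 96, 59 and 154 counts in wild type, 105, 82, 70 and 140 in circ-crh-1(syb385), and 141, 107, 102 and 89 in the crh-1(n3315)-labelled libraries. Its log2 fold changes were 0.02 (95% interval −0.50 to 0.54) and 0.05 (−0.48 to 0.57), intervals that do not reach 2-fold in either direction. The sign of both turned under some alternative settings.

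The antagonist ins-1, which also acts in learning, had 41, 35, 22 and 36 counts in wild type, 50, 30, 30 and 39 in circ-crh-1(syb385), and 48, 22, 33 and 35 in the crh-1(n3315)-labelled libraries. The log2 fold changes were 0.27 (95% interval −0.39 to 0.93) and 0.03 (−0.63 to 0.69), the second changing sign in some alternatives. Counts of ins-18 were 40, 22, 18 and 31, then 6, 10, 23 and 23, and then 30, 23, 21 and 17 in the same order of groups. All groups overlapped for both genes, and for ins-18 the log2 fold changes were −0.72 (95% interval −1.67 to 0.23) and −0.29 (−1.22 to 0.63), intervals that reach past a 2-fold fall.

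Summed over the 7 agonists, the level ran from 6.48 to 12.3 CPM in wild type (median 7.21). The range was 9.54 to 13.2 in circ-crh-1(syb385), with a median of 10.9, and 9.73 to 16.4 in the crh-1(n3315)-labelled libraries (median 11.9). Summed over the 3 antagonists, it ran from 5.39 to 9.90 CPM in wild type (median 8.16). The range was 6.45 to 9.68 in circ-crh-1(syb385), with a median of 7.51, and 7.203 to 9.22 in the crh-1(n3315)-labelled libraries (median 7.51). Both sums overlapped between all groups. Signs were mixed among the agonists, as ins-3, ins-7 and ins-35 had log2 fold changes below 0 in both mutants while the other 4 were above 0. No agonist was called lower in the main edgeR fit, and the sign of ins-7 turned in some alternatives. These signs therefore do not establish that agonists moved in opposite directions.

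Among the 24 tested genes, the largest fall in each mutant was in ins-23, a gene on neither list (chromosome III, 10028247 to 10028600, plus strand). It had 57, 12, 42 and 41 counts in wild type, 1, 2, 2 and 8 in circ-crh-1(syb385), and 4, 2, 1 and 1 in the crh-1(n3315)-labelled libraries. All mutant libraries lay below all wild-type libraries, and most held no more than 3 counts. The mean fell from 1.84 ± 0.961 CPM (SD, n = 4) to 0.163 ± 0.1495 and 0.0921 ± 0.0568. The log2 fold change was −3.42 (SE 0.67, adjusted p = 0.00291, edgeR) in circ-crh-1(syb385) and −4.20 (SE 0.71, adjusted p = 0.000304, edgeR) in the crh-1(n3315)-labelled libraries. With the pair of libraries left out it was −3.42 and −4.50. Its neighbours in the same array, ins-21 and ins-22, were near or under the limit of detection or overlapped between genotypes.

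**Figure D4:**
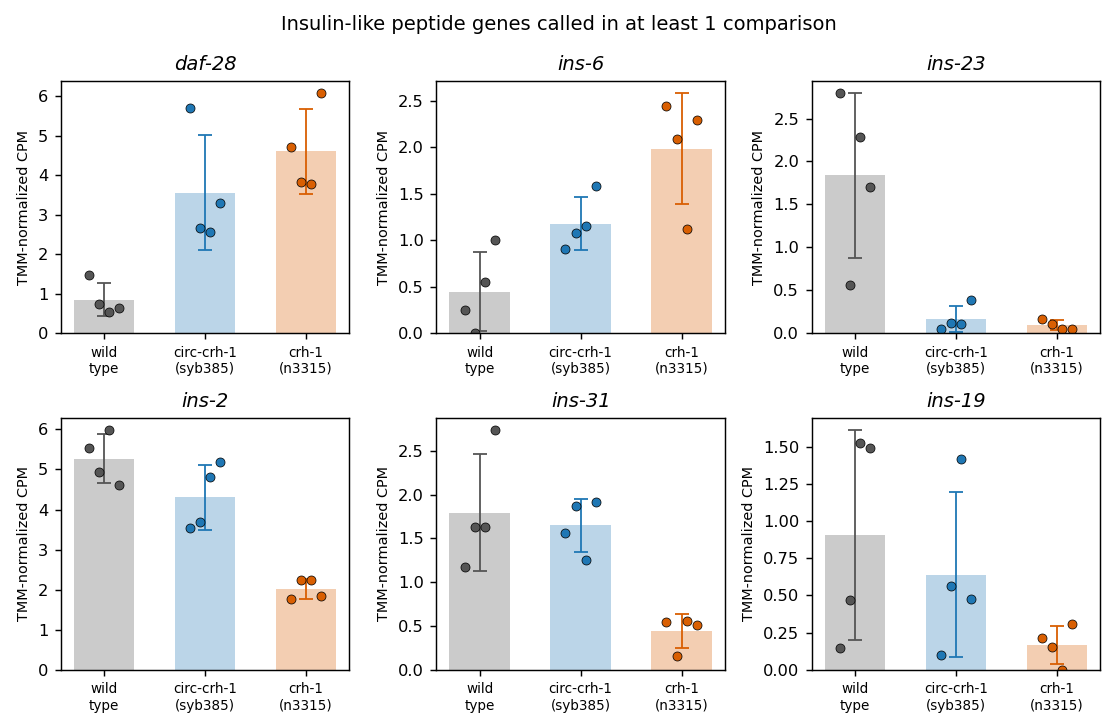
TMM-normalized CPM (y axis, from 0, scaled per gene) of the 6 genes called in at least 1 comparison, by genotype (x axis), where points are libraries, bars are means and error bars are SDs (n = 4). In both mutants daf-28 lies above and ins-23 below all wild-type points, ins-2 and ins-31 are low only in the crh-1(n3315)-labelled libraries, and the groups of ins-19 overlap.

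The fall of ins-2 was small but even. This gene (chromosome II, 5988526 to 5989394, plus strand), on neither list, had 5.54, 4.94, 5.99 and 4.61 CPM in wild type, 3.53, 3.68, 4.82 and 5.17 CPM in circ-crh-1(syb385), and 1.77, 2.25, 2.23 and 1.84 CPM in the crh-1(n3315)-labelled libraries. The last group lay below both others without overlap, while circ-crh-1(syb385) overlapped wild type. Mean levels were 5.27 ± 0.614, 4.30 ± 0.821 and 2.02 ± 0.254 CPM (SD, n = 4). The log2 fold change was −1.38 (SE 0.22, adjusted p = 0.000189, edgeR) in the crh-1(n3315)-labelled libraries and −0.29 (SE 0.21, adjusted p = 0.387, edgeR) in circ-crh-1(syb385).

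The same groups separated for ins-31, a gene on neither list (chromosome II, 3127041 to 3127811, plus strand). Counts were 24, 35, 30 and 66 in wild type, 31, 33, 24 and 40 in circ-crh-1(syb385), and 13, 3, 12 and 10 in the crh-1(n3315)-labelled libraries. The log2 fold change was −2.001 (SE 0.43, adjusted p = 0.00170, edgeR) in the latter and −0.13 (SE 0.39, adjusted p = 0.869, edgeR) in circ-crh-1(syb385).

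The call of ins-19, which lies 599 nt from ins-31 and is transcribed away from it, was the least steady. It had 3, 10, 28 and 36 counts in wild type, 2, 10, 27 and 10 in circ-crh-1(syb385), and 5, 3, 0 and 6 in the crh-1(n3315)-labelled libraries. The groups overlapped, since wild type replicate 1 held as few counts as the mutant libraries. The log2 fold change was −2.40 (SE 0.90, adjusted p = 0.0427, edgeR), and the call held in 5 of the 12 fits that left out 1 library. Over those 12 fits the log2 fold change ran from −2.83 to −1.99 and the adjusted p from 0.0179 to 0.117. The call ended without wild type replicate 3 or 4, circ-crh-1(syb385) replicate 2 or 4, or crh-1(n3315) replicate 1, 2 or 3. It also ended with a correction for gene length, at −2.03 (adjusted p = 0.0659, edgeR). The call stood without the pair of libraries that stand apart, at −2.62 (adjusted p = 0.0285, edgeR). By DESeq2 it stood as well, at −2.45 (adjusted p = 0.0207).

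The abundant ins-34 (chromosome IV) had 9.02, 7.46, 7.68 and 9.47 CPM in wild type, 10.8, 6.73, 10.1 and 6.995 CPM in circ-crh-1(syb385), and 5.52, 5.82, 6.84 and 7.05 CPM in the crh-1(n3315)-labelled libraries. The last group lay below wild type without overlap, by a log2 fold change of −0.42 (SE 0.19, adjusted p = 0.0982, edgeR), which did not pass. In circ-crh-1(syb385) it was 0.04 (SE 0.19, adjusted p = 0.911, edgeR), with a sign that turned in some alternatives. Counting genes whose groups did not overlap, 2 of the 24 lay higher and 1 lower in circ-crh-1(syb385), where 9.79% and 8.95% of all tested genes did. In the crh-1(n3315)-labelled libraries 2 lay higher and 4 lower, where 20.5% and 18.2% of all tested genes did.

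The mutants were also compared with each other. In the crh-1(n3315)-labelled libraries, ins-31 was called lower than in circ-crh-1(syb385), with a log2 fold change of −1.88 (SE 0.43, adjusted p = 0.00896, edgeR), and so was ins-2, with −1.09 (SE 0.22, adjusted p = 0.00495, edgeR). These were 2 of the 24 genes, where 2.39% of all tested genes were called lower and 1.49% higher (3.88% in either direction). The ins-2 call ended without circ-crh-1(syb385) replicate 4, at −0.99, and with a correction for gene length, at −0.84, both short of 2-fold. These were also the genes without overlap, where 14.3% of all tested genes lay lower without overlap. No gene of the family was called higher by edgeR or DESeq2, and 0 had an unadjusted p under 0.05 in that direction.

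For the genes that differed from wild type in both mutants, the direct comparison gave no call. It was 0.37 for daf-28 (95% interval −0.33 to 1.07, adjusted p = 0.469, edgeR) and −0.78 for ins-23 (−2.52 to 0.95, adjusted p = 0.540, edgeR). For ins-6 it was 0.75 (−0.50 to 1.997, adjusted p = 0.402, edgeR), so the call against wild type in 1 mutant alone was not shown to be a difference between the mutants. The same holds for ins-19, at −1.90 (−3.85 to 0.04, adjusted p = 0.161, edgeR). These intervals leave room for differences of 2-fold. The comparisons with wild type share its 4 libraries.

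Whether position in the genome goes with direction was not tested. With gaps of up to 10 kb, 25 of the 39 genes lay in 7 clusters and 14 lay alone, and 15 of all were on chromosome II. The cluster of ins-2, ins-3, ins-4, ins-5, ins-6 and ins-20 spans 22796 nt there. In the crh-1(n3315)-labelled libraries it held both a called fall, in ins-2, and a called rise, in ins-6. Along the cluster, ins-2 and ins-3 had log2 fold changes below 0 in both mutants, and ins-4, ins-5 and ins-6 above 0. For ins-5 they were 1.01 in circ-crh-1(syb385) and 1.19 in the crh-1(n3315)-labelled libraries, with no call. The divergent pair of ins-19 and ins-31 held a call in the same direction for both. In the cluster of ins-24 to ins-30 on chromosome I, where ins-25 was not tested, the fit to all libraries gave no call in the 3 comparisons by edgeR or DESeq2. The lowest unadjusted p there was 0.0219, for ins-24 between the mutants, and fitted to these genotypes alone ins-24 was called lower in the crh-1(n3315)-labelled libraries, at −1.21 (adjusted p = 0.0464, edgeR). Exons of 3 genes overlap those of another gene, and as the listed counting parameters do not name strand, reads there cannot be assigned with certainty. The overlap was 50 nt with an snRNA at 0 counts for ins-7, 7 nt with vps-39 for ins-10 and 45 nt with acdh-2 for ins-13.

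Among the genes not tested, ins-11, an intestinal peptide that limits learned avoidance of pathogens, had 0, 0, 33 and 5 counts in wild type, 0, 1, 11 and 8 in circ-crh-1(syb385) and 0 in all 4 crh-1(n3315)-labelled libraries. Wild type replicate 3 held 33 of these counts, and with no filter on low counts edgeR called the gene lower (adjusted p = 0.00997). ins-25 had 1, 17, 2 and 1 counts in wild type, 0 in all circ-crh-1(syb385) libraries, and 0, 3, 3 and 0 in the crh-1(n3315)-labelled libraries. These genes and ins-35 were singled out after their values were seen. The agonist ins-35 had 11, 0, 23 and 19 counts in wild type, 13, 2, 4 and 0 in circ-crh-1(syb385), and 5, 2, 5 and 7 in the crh-1(n3315)-labelled libraries. It was not called on all libraries, with log2 fold changes of −1.37 (adjusted p = 0.365, edgeR) and −1.48 (adjusted p = 0.230, edgeR). With the pair of libraries that stand apart left out it was called lower in both mutants, at −2.95 (adjusted p = 0.0403, edgeR) and −1.89 (adjusted p = 0.0398, edgeR).

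The genes that act on these peptides were read beside them, from lists of the receptor with its cascade and of peptide processing and secretion. In the cascade, akt-2, a kinase below DAF-2, was called lower in both mutants, with log2 fold changes of −1.11 (adjusted p = 0.000359, edgeR) and −1.31 (adjusted p = 2.53e-05, edgeR). The receptor daf-2 was at −0.56 and 0.13 and daf-16 at −0.45 and 0.08, with no call. Of the 15 tested genes of the second list, kpc-1, a convertase that cuts peptide precursors, was called lower in the crh-1(n3315)-labelled libraries at −1.11 (adjusted p = 4.37e-06, edgeR). In circ-crh-1(syb385), kpc-1 was also lower, at −0.64 (adjusted p = 0.00119, edgeR), but short of 2-fold. Between the mutants unc-31, needed for the release of dense-core vesicles, was called higher in the crh-1(n3315)-labelled libraries at 1.19 (adjusted p = 0.0117, edgeR), a call that ended with a correction for gene length, at 0.87. Against wild type unc-31 was at −0.996 in circ-crh-1(syb385) (adjusted p = 0.0267, edgeR), short of 2-fold, and it was called lower there with the replicate block, at −1.03, and by library totals, at −1.15. Leaving out wild type replicate 2 or 3 or circ-crh-1(syb385) replicate 1 or 3 made it a call as well, at −1.02, −1.12, −1.26 and −1.03.

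Markers of tissues were read beside the family. The summed level of 9 neuronal genes ran from 268 to 328 CPM in wild type and 267 to 285 in circ-crh-1(syb385). It ran from 266 to 301 in the crh-1(n3315)-labelled libraries. The largest part was snb-1, at means of 142, 137 and 141 CPM in the same order. Also on the list of peptide processing and secretion, egl-21 had means of 52.0, 54.7 and 68.1 CPM. Log2 fold changes lay below 0 for 6 of the 9 genes in circ-crh-1(syb385) and 7 in the crh-1(n3315)-labelled libraries. The other 3 and 2 lay above 0. In each mutant 2 genes, both lower and short of 2-fold, had an adjusted p under 0.05 (edgeR). For 6 genes of chemosensory cilia the sum ran from 68.4 to 70.3, 64.3 to 79.5 and 55.2 to 65.5 CPM. Most of it was odr-4, at means of 62.7, 66.8 and 57.9 CPM. In each mutant 5 of these genes had log2 fold changes below 0 and 1 above, with medians of −0.71 and −1.07. In the crh-1(n3315)-labelled libraries bbs-1 and che-2 were called lower. For 6 intestinal genes the sum ran from 345 to 656, 846 to 1144 and 778 to 951 CPM, above wild type in every mutant library. Of these, act-5 and pept-1 were called higher in both mutants. In each genotype act-5 had the highest mean of the list, and the list went both ways, since ges-1, an intestinal esterase, was lower at −0.45 (adjusted p = 0.0355, edgeR) and −0.91 (adjusted p = 0.000127, edgeR), short of 2-fold. The sums of hypodermal genes ran from 455 to 1067, 1481 to 1675 and 1390 to 1821 CPM, most of it the collagen gene col-19, which was called higher in both mutants. In the same list dpy-7, also a collagen gene, was lower, at −0.75 (adjusted p = 0.00264, edgeR) and, as a call, −2.55 (adjusted p = 3.56e-08, edgeR). Of the 6 hypodermal genes, 3 were called higher and 1 lower in the crh-1(n3315)-labelled libraries. In circ-crh-1(syb385) these numbers were 1 and 0. The sums of 4 body wall muscle genes ran from 1020 to 2766, 2250 to 3261 and 3733 to 4898 CPM. In the crh-1(n3315)-labelled libraries unc-54 and unc-89 were called higher. Of the 4 genes, 1 had a log2 fold change below 0 in each mutant, at −0.41 and −0.39, with no call. For 6 germline genes the sums ran from 1960 to 3385, 3154 to 3582 and 3905 to 4260 CPM, with glp-1 called higher in the crh-1(n3315)-labelled libraries. No list had a gene at 0 in all libraries of a genotype. Single markers of the intestine and hypodermis thus differed from wild type in both directions in both mutants, and the muscle and germline sums lay above wild type in every crh-1(n3315)-labelled library. Their part in the differences of the family was not tested.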

How the data were processed

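The authors sequenced poly(A)-selected RNA from both ends, aligned it with STAR v2.7.5a (WBcel235) and ran featureCounts v1.5.0. The table they deposited holds the resulting raw counts, not normalized, and each gene's exonic length. The parameters listed in the study's methods (-t exon -g gene_id) name neither strand, read pairs nor reads with several hits, and the annotation release is not given in the sources used here. The other value per gene that the authors deposited, exonic length in nt, was used for RPKM. Samples were grouped by the genotype labels. The 39 genes and the gene lists were chosen with earlier results of these data known.

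Genes were kept by filterByExpr (minimum count 10, minimum total 15) of edgeR v4.0.16 in R v4.3.3, which left 14511. After TMM normalization, a quasi-likelihood model with genotype as its single term was fitted to all 12 libraries (prior count 0.125). P-values were adjusted over all tested genes. The fit was tested on simulated data. Given with every library were the genes called in any comparison, the 5 highest by mean RPKM and the detected agonists and antagonists. Alternatives changed the scaling, filter, tool (DESeq2 v1.42.0), fold threshold, length correction, block and libraries. P-values rest on 4 libraries per group, and positions are those of the deposited table. Per the labels, replicates carry numbers with no stated pairing. A result for 1 gene of the receptor cascade is not reported here.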

Additional observations from a re-analysis of the deposited data

Results flagged for a closer look

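In the crh-1(n3315)-labelled libraries, replicate 2 lay far below the other replicates for ins-31, at 0.153 CPM (3 counts) against 0.511 to 0.558 CPM. Its gap to the nearest library was 0.883 of the range of the group. In all, 45 groups of 4 libraries were examined in this way, and chance alone flags about 1 in 20. Without this library the log2 fold change of ins-31 stayed a call.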

How the results depend on the processing

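Of 259 alternative values for counts and summary levels, 233 stayed within the set tolerance and 26 moved. Of 1089 alternative values for named genes, 1009 kept direction and side of the threshold, 33 lost a call, 21 gained one and 26 changed sign, with no call among the sign changes. With the 2-fold threshold inside the test, the family had 0 calls higher and 0 lower in circ-crh-1(syb385), 1 and 1 (daf-28 and ins-23) in the crh-1(n3315)-labelled libraries, 0 lower between the mutants, and 0 calls on the pathway lists. Without any fold threshold the pathway lists had 27 calls. The main count was 5, and it was 3 with length offsets, with or without the replicate block. DESeq2 called 2 higher in circ-crh-1(syb385). A minimum count of 30 left 0 lower there and 2 lower in the crh-1(n3315)-labelled libraries, as ins-23 and ins-19 were then not tested. Leaving out both libraries that stand apart, an alternative chosen after seeing the data, gave 2 lower in circ-crh-1(syb385) and 6 lower in the crh-1(n3315)-labelled libraries.

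Scaling by library totals shifted the median of all genes by −0.15 with circ-crh-1(syb385) and −0.18 for the crh-1(n3315)-labelled libraries, and that of the family to −0.082 and −0.34. The family median in the crh-1(n3315)-labelled libraries was −0.028 on the 2 genotypes alone, 0.12 with length offsets and 0.19 with those and the replicate block, so its sign was not stable. With 1 library left out it ran from −0.29 to 0.0045. Between the mutants it was 0.0037 with length offsets and −0.00621 with those and the replicate block, and ran from −0.31 to −0.094 with 1 library left out. Calls lower between the mutants numbered 1 with length offsets, 1 with those and the replicate block, and 1 to 2 with 1 library left out.

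Sign changes were small values. By library totals, ins-34 and ins-17 in circ-crh-1(syb385) were −0.11 and −0.13, and ins-17 and ins-1 in the crh-1(n3315)-labelled libraries were −0.13 and −0.15. ins-1 was −0.010 at a minimum count of 30. ins-7 was 0.11 with length offsets and the replicate block, and unc-31 −0.048 with length offsets and −0.068 with those and the replicate block. Leaving out both libraries that stand apart gave −0.13 for ins-34 and −0.049 for ins-17 in circ-crh-1(syb385) and −0.00292 for ins-17 in the crh-1(n3315)-labelled libraries. With 1 library left out, the ranges in circ-crh-1(syb385) were −0.27 to 0.16 for ins-31, −0.079 to 0.15 for ins-34 and −0.14 to 0.16 for ins-17. In the crh-1(n3315)-labelled libraries they were −0.11 to 0.19 for ins-17, −0.69 to 0.019 for ins-7 and −0.092 to 0.17 for ins-1, and between the mutants −1.25 to 0.077 for ins-23. Where no construction is named, the cause was not tested.

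Same-numbered replicates did not deviate together (correlations from −0.08 to 0.12). With 4 libraries per group, this cannot exclude that same-numbered samples were handled together. With the replicate block the ins-19 call was lost, at −1.949 (adjusted p = 0.115, edgeR), and no other call of the family against wild type was. At this depth 15 of the 39 genes did not pass the filter and were not tested.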
